A study of Mus musculus with 2 samples.

Results

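Genes of the vascular endothelial growth factor (VEGF) and angiopoietin systems were examined in single-cell RNA-seq of mouse liver. They were the VEGF receptors Kdr, Flt1 and Flt4, the coreceptors Nrp1 and Nrp2, and the semaphorin receptor Plxnd1. The ligands Vegfa and Vegfc, and the angiopoietin receptor Tek with its ligand Angpt2, were included. All were chosen by symbol, as 10 of the 32285 genes listed for both libraries, and each symbol matched 1 gene. The study has 1 library per group. The WT library holds liver cells of control mice (genotype label CTRL), and the N-LKO library holds cells of liver plus tumor from mice with the label NgBR KO. NgBR, the Nogo-B receptor, is encoded by Nus1, and in N-LKO mice its floxed allele was recombined by Cre under the albumin promoter, which is active in hepatocytes and not in endothelial, stellate or immune cells. Both groups were on the C57BL6 background and went from 8 weeks of standard chow to a 16-week diet, which the treatment labels call WD and the sample titles call HFD. The number of mice pooled into each library is not given in the sources used here. Perfused livers were separated into hepatocytes and nonparenchymal cells, which were mixed in equal parts before loading, and tumor cells were added to the N-LKO mixture only. Genotype, tumor tissue and library therefore cannot be told apart, differences had no replicate check, and the mixing sets how many cells of each class were seen.

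VEGF-A binds KDR (VEGFR2), the main signalling receptor of blood endothelium, and FLT1 (VEGFR1), which binds the ligand more tightly and signals less. VEGF-C acts mainly through FLT4 (VEGFR3), which in liver is found on sinusoidal endothelium as well as on lymphatic vessels. The neuropilins NRP1 and NRP2 are coreceptors that bind both VEGFs and class 3 semaphorins, and PLXND1 is a semaphorin receptor of endothelium. TEK (TIE2) is kept active by angiopoietin-1 from perivascular cells, and ANGPT2, made by endothelial cells themselves, can block or activate it.

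The WT and N-LKO libraries hold 100171 and 90147 barcodes with 85522287 and 87575064 UMIs (unique molecular identifiers, each counting 1 captured transcript). After filtering, 18434 WT and 19851 N-LKO cells remained, with medians of 1401 and 1454 UMIs per cell. They fell into 23 clusters, of which 20 were named from marker genes and 3 were left unnamed because they carried the markers of more than 1 cell type. Kept cells of both libraries shared 122 barcode sequences. Nus1, the targeted gene, stood in hepatocyte-like cells at 72.9 (WT) and 34.9 (N-LKO) CPM, counts scaled to a total of 1000000 UMIs. Its log2 ratio was -1.06 (95% interval -1.25 to -0.88). Endothelial-like cells had it at 90.8 and 93.4 CPM. In what follows a level is the CPM of all UMIs summed over a class in 1 library, with its exact Poisson interval in parentheses. A log2 ratio is N-LKO over WT with its exact binomial interval. Every interval is at 95% and covers counting error only, not the differences between mice or preparations. CPM was not divided by transcript length, so levels were compared between cells and not between genes. A lower CPM of a class cannot tell fewer transcripts per cell from a changed mix of cells within the class.

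The spans of the 10 genes in GRCm38 differ widely, which bears on the ratios below. Kdr runs over 45.6 kb on the minus strand (chr5:75932827-75978458) and Vegfa over 15.4 kb, also on the minus strand (chr17:46016993-46032369), the shortest of the 10. Flt1 spans 164 kb, Nrp1 145 kb, Tek 136 kb, Nrp2 115 kb and Vegfc 109 kb, whereas Angpt2, Flt4 and Plxnd1 span 51.3, 43.5 and 40.2 kb. The promoters of Kdr and Vegfa are shown because these genes had the largest ratios in either direction in endothelial-like cells. The windows run up to the first base of the RefSeq transcript (GRCm38.p6, minus strand), Kdr at chr5:75978459-75978705 and Vegfa at chr17:46032378-46032627, and capitals mark matches to ACGTG or GCGTG, the core of the hypoxia response element, searched on both strands.
Kdr: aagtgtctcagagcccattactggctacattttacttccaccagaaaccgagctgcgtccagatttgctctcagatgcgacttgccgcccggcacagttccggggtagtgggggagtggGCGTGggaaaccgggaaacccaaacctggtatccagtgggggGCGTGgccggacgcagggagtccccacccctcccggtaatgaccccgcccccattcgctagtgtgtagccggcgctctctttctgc
Vegfa: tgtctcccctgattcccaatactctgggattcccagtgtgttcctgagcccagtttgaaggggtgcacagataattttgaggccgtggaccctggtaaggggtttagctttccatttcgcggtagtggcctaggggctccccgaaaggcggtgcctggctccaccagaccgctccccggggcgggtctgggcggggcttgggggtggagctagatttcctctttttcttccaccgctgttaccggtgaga
Kdr held 2 matches to GCGTG and none to ACGTG, and the Vegfa window printed held neither. RefSeq gives Vegfa a second start site, and the window before that one, not printed, held 1 match to each core. Either core was found in 38.6% of the 32851 promoter windows in the RefSeq table, and GGAA, the core of ETS factor sites, in 93.4%, so their presence in a window of this length is common. RefSeq promoter entries were found for 9 of the 10 genes, Angpt2 being without one.

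Endothelial-like cells held the highest levels of Kdr, Flt1, Flt4, Nrp1, Nrp2, Plxnd1 and Tek in both libraries, with intervals that did not overlap those of the next class. Vegfc was highest in hepatic stellate-like cells and next in endothelial-like cells, and Vegfa in cholangiocyte-like and hepatocyte-like cells. The classes were found without these genes and without their pathway, so the levels did not define them. Kdr was at 808 CPM (772 to 845) in WT endothelial-like cells, 500.2 (467 to 535) in stellate-like, 33.0 (30.3 to 35.8) in hepatocyte-like and 20.4 (15.2 to 26.8) in macrophage-like cells. Stellate-like cells thus stood second for the receptors, although they are pericytes that lie against the sinusoidal endothelium. Their 11 endothelial markers, all detected, summed to 3052 CPM in WT, against 5765 in endothelial-like cells.

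**Figure D1:**
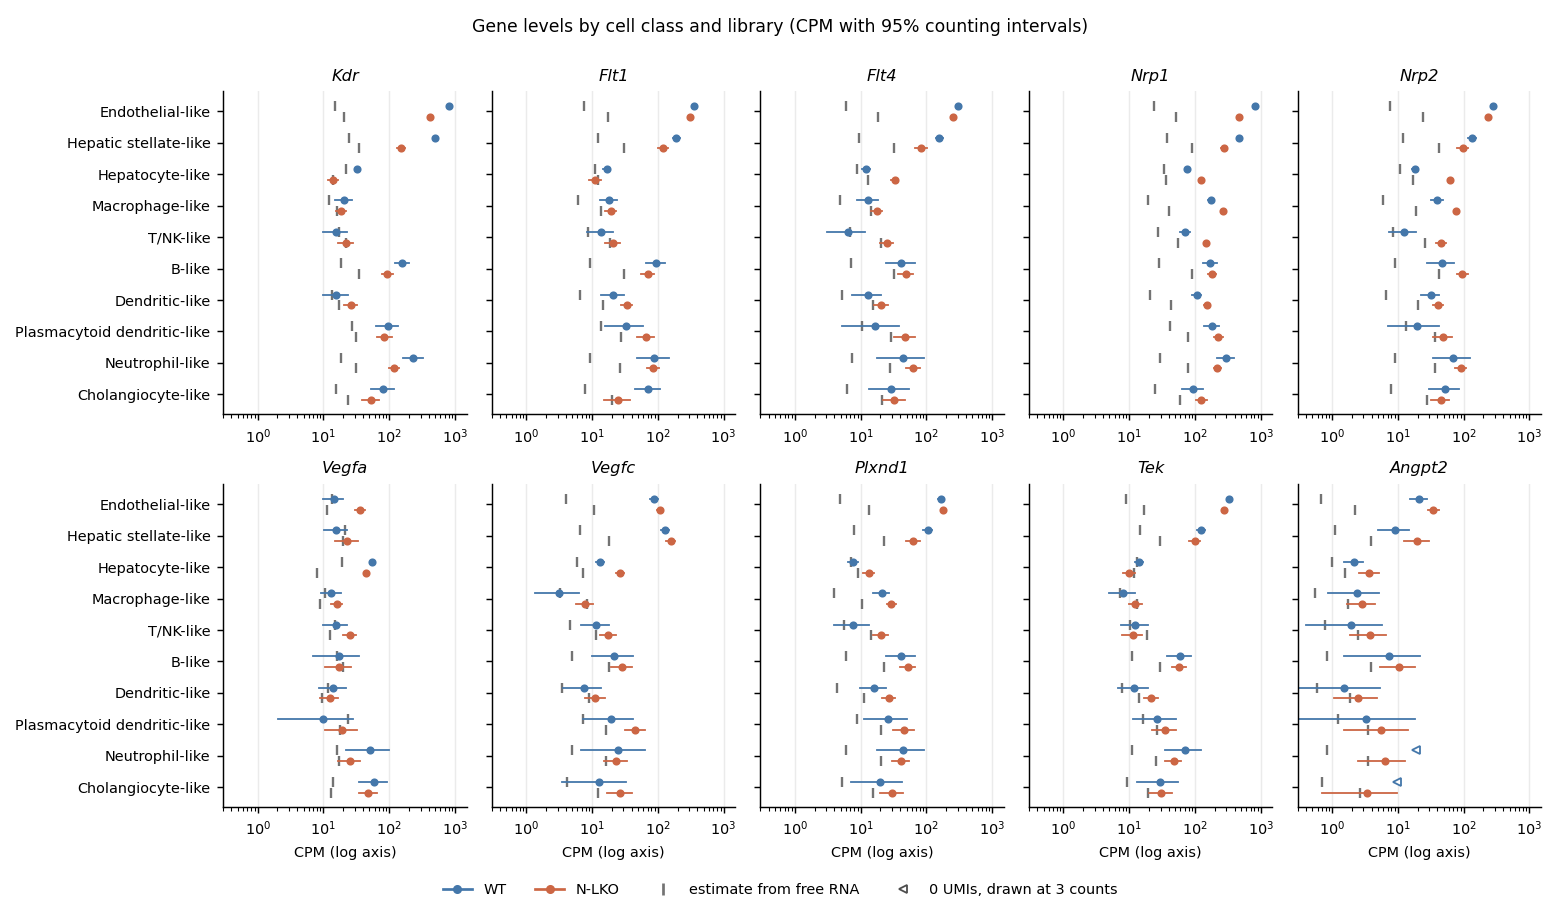
Level of each of the 10 genes (CPM, log axis) in each named class of at least 100 cells, with WT and N-LKO as separate points, bars for 95% counting intervals of 1 library each, grey ticks for the free-RNA estimate and open triangles, drawn at 3 counts, where there were 0 UMIs. Kdr in endothelial-like cells stands at 808 CPM in WT and 422 in N-LKO, above every other class, while Vegfc is highest in hepatic stellate-like cells.

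Vegfa reached 58.1 CPM (34.4 to 91.8) in WT cholangiocyte-like and 54.5 (51.0 to 58.2) in WT hepatocyte-like cells, and 48.0 (34.8 to 64.7) and 45.2 (40.8 to 49.9) in N-LKO. The order of these classes could not be told in either library because their intervals overlapped. In WT endothelial-like cells Vegfa was at 14.4 CPM, close to the 13.3 CPM expected there from RNA free in the suspension, as estimated from barcodes of low UMI count. Vegfc stood at 128 CPM (111 to 146) in WT stellate-like and 87.8 (76.3 to 101) in WT endothelial-like cells, and at 157 (135 to 182) and 107 (95.9 to 118) in N-LKO. Angpt2 was at 20.8 CPM (15.4 to 27.5) in WT endothelial-like cells, apart from the 8.99 (5.03 to 14.8) of stellate-like cells. In N-LKO the intervals of both classes overlapped, at 34.6 (28.7 to 41.5) and 19.6 (12.3 to 29.6) CPM.

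In N-LKO endothelial-like cells (2353 cells against 1869 in WT) the main signalling receptor Kdr and the coreceptor Nrp1 were each lower by nearly the same ratio, while the ligands Vegfa and Angpt2 were higher. Kdr went from 808 to 422 CPM (401 to 445), which is a log2 ratio of -0.94 (-1.04 to -0.84) from 1904 and 1438 UMIs. The other receptors were closer to their WT level. Flt1 was at 359 CPM in WT and 305 in N-LKO, which is a log2 ratio of -0.23 (-0.36 to -0.10), and Flt4 at 301 and 256, also -0.23 (-0.38 to -0.09). Nrp1 was at 819 (783 to 857) and 459 (437 to 483) CPM, a ratio of -0.84 (-0.93 to -0.74). Nrp2 was at 281 and 236 CPM, a ratio of -0.25, and Plxnd1 at 168 and 179, with an interval on both sides of 0 (-0.09 to 0.28).

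Among the ligands, Vegfa was at 14.4 CPM (9.99 to 20.2) in WT and 36.4 (30.3 to 43.4) in N-LKO endothelial-like cells, which is a log2 ratio of 1.32 (0.78 to 1.93) from 34 and 124 UMIs. The free-RNA estimate for Vegfa there was 13.3 CPM in WT and 11.4 in N-LKO, so the N-LKO level alone stood clearly above it. Of the 124 N-LKO UMIs, 65 lay in the subcluster of 521 N-LKO cells that was left unnamed, described below. Vegfc was at 87.8 and 107 CPM, a ratio of 0.28 (0.03 to 0.53). In the Tie system, Tek was at 325 and 276 CPM, a ratio of -0.23, and Angpt2 at 20.8 and 34.6, a ratio of 0.73 (0.24 to 1.25) from 49 and 118 UMIs.

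All 10 genes were measured in endothelial-like cells, meaning at least 5 CPM in at least 1 library, and their median log2 ratio was -0.23 against 0.08 over the 11495 genes measured. Vegfa alone was at least 2-fold higher in N-LKO, where 12.5% of all genes were, and 0 of 10 were at least 2-fold lower, where 7.54% were. With every cell brought down to 1000 UMIs at random, Kdr was seen in 52.5% of WT and 33.5% of N-LKO cells (59.2% and 42.2% at full depth). For Nrp1 it was 53.0% and 35.2%. In T/NK-like cells, which should lack Kdr, the thinned share was 1.02% and 2.13%, at median depths of 1189 and 1347.5 UMIs against 1173 and 1259 in endothelial-like cells.

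**Figure D2:**
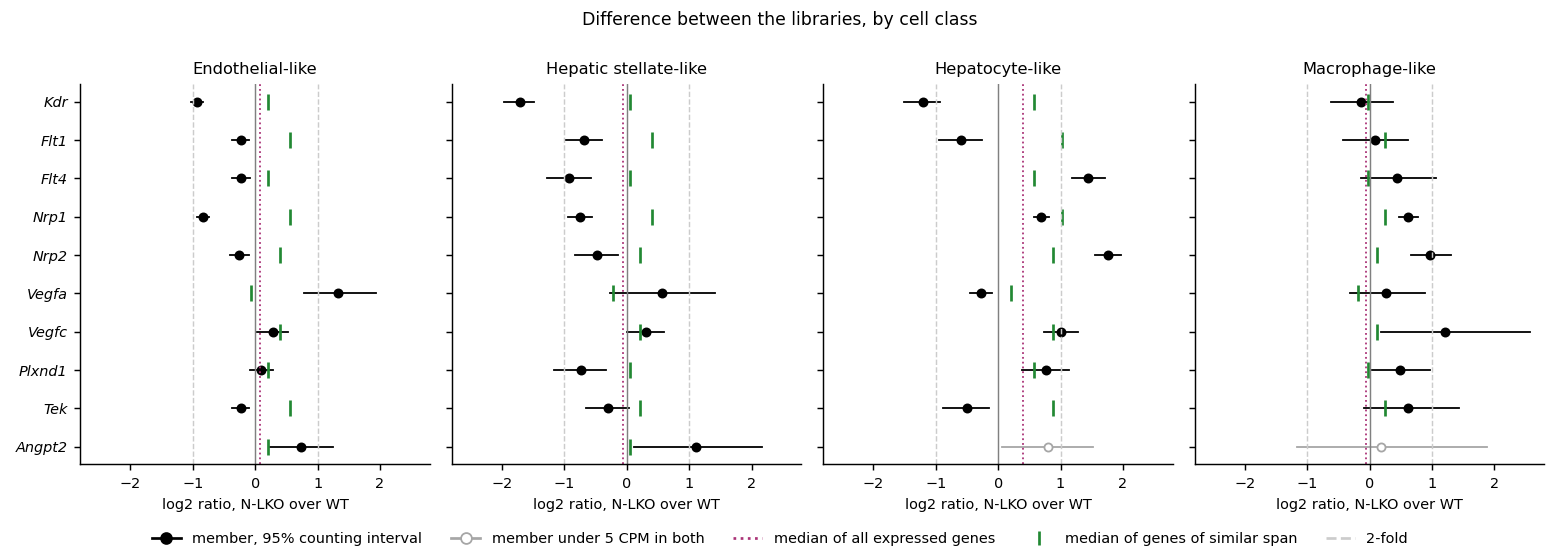
Log2 ratio of N-LKO over WT for each gene in endothelial-like, hepatic stellate-like, hepatocyte-like and macrophage-like cells, with bars for 95% counting intervals and 1 library per group. Nrp1 lies at -0.84 in endothelial-like and at 0.62 in macrophage-like cells, and Kdr lies below 0 in endothelial-like, stellate-like and hepatocyte-like cells.

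Other genes of the endothelium differed in the same cells. Of the 11 endothelial markers, 9 were lower in N-LKO with intervals clear of 0 and Pecam1, a junction protein, was higher (283 and 322 CPM, log2 ratio 0.19), and their sum went from 5765 to 4032 CPM. The DNase Dnase1l3 went from 741 to 338 CPM (-1.13) and the sinusoidal lectin Clec4g from 612 to 343 (-0.84), whereas Cdh5, vascular endothelial cadherin, had a ratio of -0.06 (-0.21 to 0.08). The ratio of Kdr thus lay between those of Clec4g and Dnase1l3. Markers of other cells in the class went both ways. The 10 hepatocyte markers summed to 14349 CPM in WT and 10339 in N-LKO, with 5 lower and 5 higher, the 11 stellate markers to 501 and 444, with 8 lower, and the 10 macrophage markers to 395 and 621, with 9 higher. The part of these shifts in the ratios of Kdr and Nrp1 was not tested.

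Endothelial-like cells were clustered again, without the 10 genes and their pathway, to compare cells of the same kind. Most subclusters came from 1 library. The largest sinusoidal-like subcluster held 1636 WT and 59 N-LKO cells, and the next held 88 WT and 1566 N-LKO cells. A subcluster of 6 WT and 521 N-LKO cells, led by Hnf4aos and Lipc, was left unnamed. There Kdr was at 212 CPM, Nrp1 at 325 and Vegfa at 64.4 in N-LKO. Its sinusoidal markers stood at 0.44 of the highest level, and Malat1, a nuclear RNA, at 17570 CPM. The N-LKO hepatocyte-like cluster of 2116 cells, also led by Hnf4aos, had Malat1 at 19834 and Vegfa at 70.0. The hepatocyte marker Alb was lower in the unnamed subcluster (3437 CPM) than in the sinusoidal-like one of 1566 N-LKO cells (4243). Whether its Vegfa was endothelial was not tested.

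In the sinusoidal-like subclusters together (1774 WT and 1769 N-LKO cells) Kdr and Nrp1 stayed lower, and Vegfc and Angpt2 stood out as higher. Kdr was at 836 CPM in WT and 520 in N-LKO, which is a log2 ratio of -0.68 (-0.79 to -0.58), and Nrp1 at 838 and 516, a ratio of -0.70. Flt1, Flt4 and Tek had ratios of 0.02, -0.02 and 0.05, and Nrp2 of -0.18 (-0.34 to -0.01). Vegfc was at 50.3 and 101 CPM, a ratio of 1.00 (0.67 to 1.34), larger than in the whole class. Angpt2 was at 21.1 and 42.7 CPM, a ratio of 1.01, and Vegfa at 13.5 and 25.3, a ratio of 0.90 (0.25 to 1.60) from 30 and 58 UMIs. Among all genes measured in these cells 8.41% were at least 2-fold higher and 7.72% at least 2-fold lower. Pecam1 and Cdh5 had ratios of 0.39 and 0.15 there, and Clec4g and Dnase1l3 of -0.59 and -0.87.

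Kdr also differed between libraries within both large sinusoidal-like subclusters. In the largest it was at 834 CPM (794 to 875) in WT and 456 (320 to 632) in the 59 N-LKO cells. In the next it was at 1006 (839 to 1197) in the 88 WT cells and 527 (495 to 559) in N-LKO. In a smaller sinusoidal-like subcluster of 50 WT and 95 N-LKO cells it was at 628 (466 to 828) and 519 (410 to 647), with overlapping intervals. The vascular-like subcluster, of 89 WT and 28 N-LKO cells, carried the highest Vegfc of the named subclusters in both libraries, at 809 and 510 CPM. Its Tek was at 602 and 535 CPM, its Kdr at 275 and 97.2, and its Flt4 at 94.6 and 122.

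**Figure D3:**
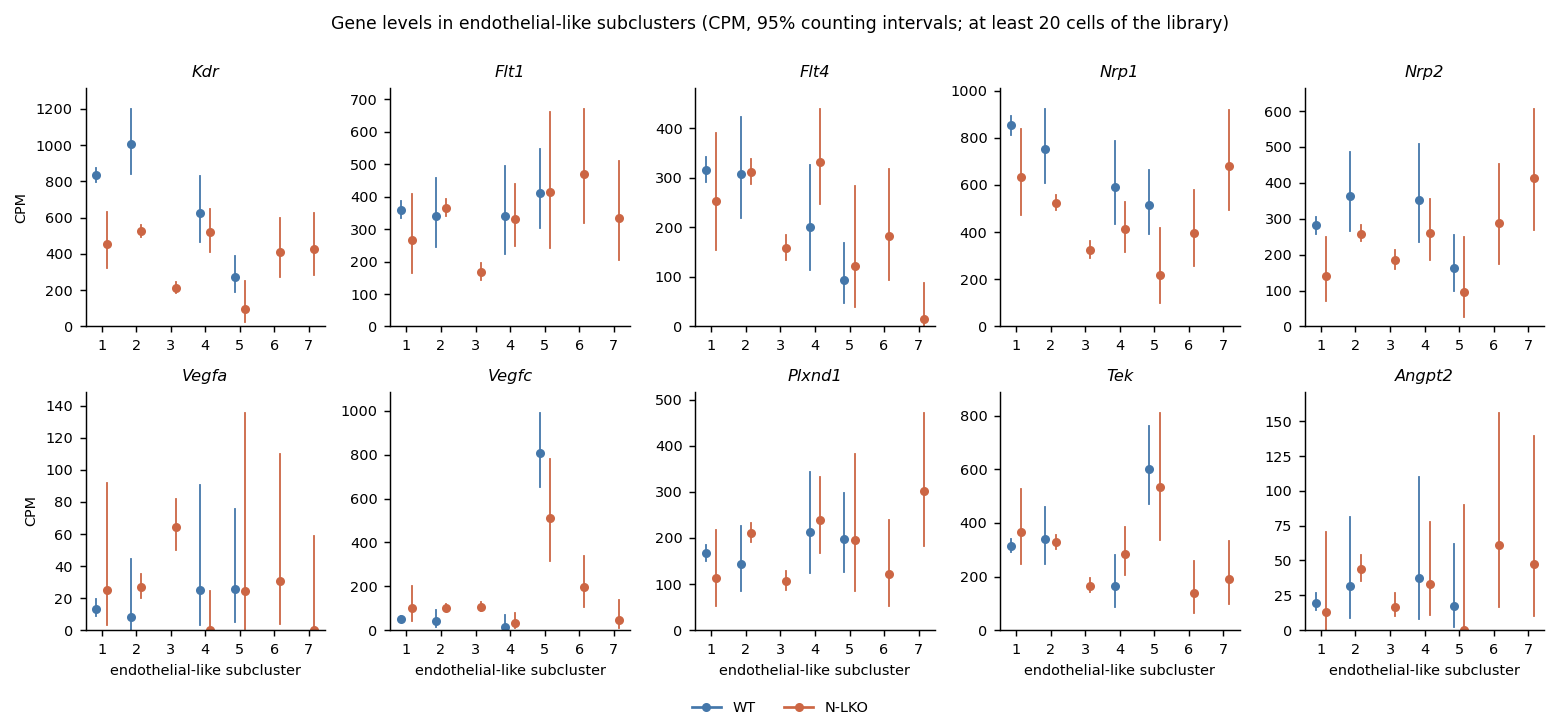
Levels (CPM) of the 10 genes in the 7 subclusters of endothelial-like cells with at least 20 cells of the library, with WT and N-LKO points and bars for 95% counting intervals. Subclusters 1, 2, 4 and 6 are sinusoidal-like, 5 is vascular-like, and 3 and 7 are unnamed. Vegfc is highest in the vascular-like subcluster, and Kdr is lower in N-LKO in both large sinusoidal-like subclusters.

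In hepatic stellate-like cells (902 WT and 634 N-LKO) the VEGF receptors and the coreceptors were lower in N-LKO, Kdr by most, and Vegfc was slightly higher. Kdr was at 500.2 CPM in WT and 152 (130 to 177) in N-LKO, which is a log2 ratio of -1.71 (-1.96 to -1.48) from 835 and 171 UMIs. Flt1 was at 192 and 119 CPM (-0.68), Flt4 at 157 and 82.7 (-0.92), and Tek at 122 and 98.8, with an interval that reached 0 (-0.30, -0.65 to 0.04). Of the 11 endothelial markers, 10 were lower with intervals clear of 0 and Pecam1 was at -0.28 (-0.60 to 0.03), their sum went from 3052 to 1528 CPM, and the 11 stellate markers went from 10933 to 6244 CPM. The free-RNA share was estimated at 89.3% of UMIs in WT and at its ceiling of 100% in N-LKO. Markers of other cell types enter this estimate, endothelial ones among them, and these cells carried those, so it may be too high.

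Nrp1 was at 464 and 277 CPM in stellate-like cells (-0.74), Nrp2 at 134 and 96.1 (-0.48), and Plxnd1 at 104 and 62.3 (-0.74). Vegfc, by contrast, was at 128 and 157 CPM, a ratio of 0.30 (0.01 to 0.60), and Angpt2 at 8.99 and 19.6, a ratio of 1.11 from 15 and 22 UMIs. Vegfa was at 15.6 (10.2 to 22.8) and 23.1 (15.1 to 33.9) CPM, with overlapping intervals. The median over the 10 genes was -0.58 against -0.07 over all genes. Angpt2 was the 1 gene at least 2-fold higher (10.5% of all genes) and Kdr the 1 at least 2-fold lower (8.2%).

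The stellate-like cells without a UMI of any endothelial marker, 131 in WT and 229 in N-LKO gave other values than the class. Kdr was at 42.5 CPM (18.3 to 83.6) there in WT and 23.8 (10.9 to 45.2) in N-LKO, far under its class level in WT, and both intervals overlapped. Nrp1 was at 175 and 188 CPM, and Vegfc at 143 and 148, near its level in the whole class. Flt1 was at 21.2 CPM (5.8 to 54.3) from 4 UMIs and 60.9 (38.6 to 91.3) from 23, higher in N-LKO where it was lower in the class. Nrp2 had 0 UMIs in WT (up to 19.6 CPM) and 18 in N-LKO, at 47.6 CPM (28.2 to 75.3), also opposite to its class ratio. Most stellate-like UMIs of Kdr thus lay in cells that also held endothelial marker UMIs, whereas the level of Vegfc was much the same with and without those cells.

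In hepatocyte-like cells (9970 WT and 4187 N-LKO) Nrp2 and Flt4 were higher in N-LKO and Kdr lower, with Vegfa, the ligand that hepatocytes make, slightly lower. Vegfa went from 54.5 to 45.2 CPM, which is a log2 ratio of -0.27 (-0.45 to -0.10) from 918 and 391 UMIs. Its free-RNA estimates were 19.3 and 8.0 CPM, and with free RNA subtracted its ratio was 0.08. Nrp2 was at 18.4 (16.4 to 20.6) and 62.4 (57.2 to 67.9) CPM, a ratio of 1.76 (1.56 to 1.97). Flt4 was at 12.2 (10.6 to 14.0) and 33.2 (29.4 to 37.2), a ratio of 1.44 (1.18 to 1.70). Vegfc and Nrp1 were also higher, but not without the largest N-LKO cluster. The N-LKO levels of Nrp2 and Flt4 stood above the free-RNA estimates of 16.7 CPM for Nrp2 and 13.0 for Flt4.

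Nrp1 was at 76.1 and 123 CPM in hepatocyte-like cells, a ratio of 0.69, Vegfc at 13.2 and 26.5, a ratio of 1.00, and Plxnd1 at 7.78 and 13.2, a ratio of 0.76. Kdr was at 33.0 and 14.2 CPM (-1.21), Flt1 at 16.8 and 11.1 (-0.59), and Tek at 14.1 and 9.94 (-0.50). The free-RNA estimate for Kdr was 22.1 CPM in WT and 14.2 in N-LKO, the latter equal to its measured level. Tek was near its estimates of 13.0 and 11.8 CPM in both libraries, and Flt1 in N-LKO near its estimate of 12.2. The estimated free-RNA share of the class was 81.2% in WT and 40.3% in N-LKO, and its part in these lower values was not tested. In the same cells the 11 endothelial markers summed to 248 and 194 CPM. Angpt2, at 2.14 and 3.70 CPM, was under the level needed to be measured. Of the 9 measured genes, 3 were at least 2-fold higher (22.0% of all genes) and 1 at least 2-fold lower (2.42%), and their median of 0.69 stood beside 0.39 over all genes. Relative to that general shift of 0.39, Nrp2 was at 1.37, Flt4 at 1.04, Vegfc at 0.61, Nrp1 at 0.30 and Vegfa at -0.66.

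The hepatocyte-like ratios followed the clusters, each of which came almost wholly from 1 library. The largest WT cluster held 8214 of the WT cells, and the N-LKO cells fell mainly into a cluster of 2116 cells with Malat1, a nuclear RNA, at 19834 CPM and another of 1975 cells with Malat1 at 4483 CPM. In the first of these N-LKO clusters Nrp1 was at 185 CPM (172 to 199), Nrp2 at 101 (91.6 to 111), Vegfa at 70.0 (62.1 to 78.6), Flt4 at 51.9 (45.1 to 59.4) and Vegfc at 43.8 (37.6 to 50.7). In the other they were at 66.4, 28.2, 22.7, 16.6 and 10.9 CPM, lower for all 5 genes. The largest WT cluster had Nrp1 at 76.3, Nrp2 at 18.3, Vegfa at 52.5, Flt4 at 13.1 and Vegfc at 13.4 CPM.

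A WT cluster of 345 cells with Malat1 at 34980.5 CPM, higher than in either N-LKO cluster, had Vegfa at 142 CPM (115 to 172) and Nrp1 at 188 (158 to 223), but Nrp2 at 19.7 (10.7 to 33.0) and Flt4 at 11.2 (4.85 to 22.1). High Malat1 thus went with high Vegfa and Nrp1 in both libraries, and with high Nrp2 and Flt4 in N-LKO. Without the largest N-LKO cluster the ratio of Nrp2 was 0.60 and that of Flt4 0.43, while Nrp1, Vegfc and Plxnd1 turned to -0.17, -0.26 and -0.05 and Vegfa went to -1.24. A WT cluster of 147 cells led by pericentral genes had Nrp2 at 69.8 CPM and Vegfa at 78.5, from 16 and 18 UMIs.

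**Figure D4:**
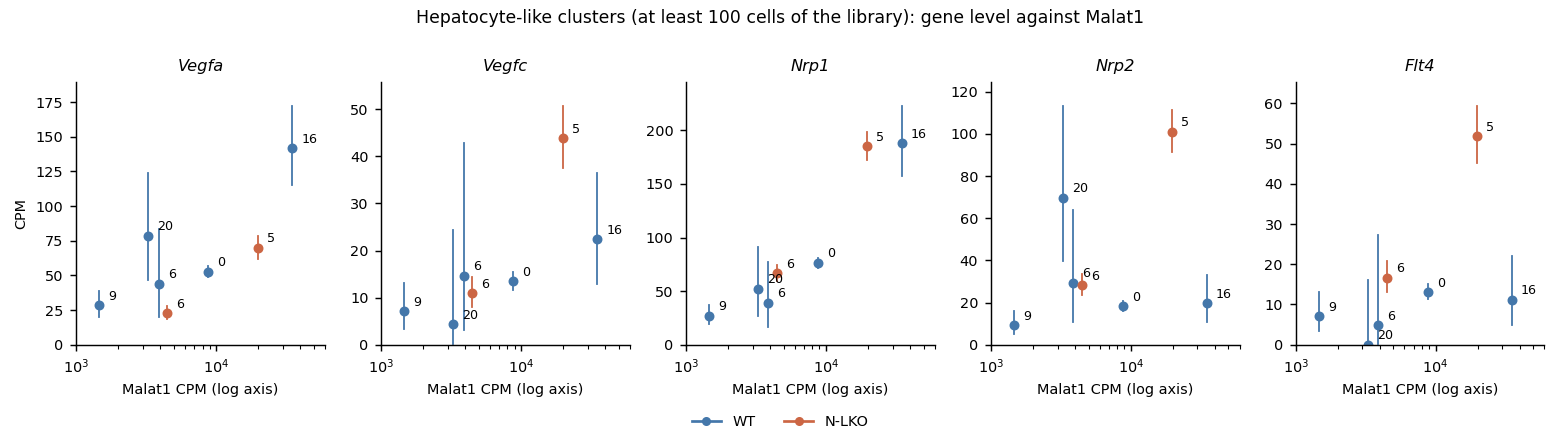
Levels (CPM) of Vegfa, Vegfc, Nrp1, Nrp2 and Flt4 against Malat1 (CPM, log axis) in the hepatocyte-like clusters with at least 100 cells of the library, with the cluster number beside each WT or N-LKO point and bars for 95% counting intervals. The N-LKO cluster of high Malat1 (5) has Nrp2 at 101 CPM and the WT cluster of high Malat1 (16) has it at 19.7, while Nrp1 is at 185 and 188 in these clusters.

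In macrophage-like cells (1698 WT and 3631 N-LKO) both neuropilins were higher in N-LKO, opposite to endothelial-like cells, and the VEGF receptors stood at low levels. Nrp1 was at 172 CPM (156 to 189) in WT and 264 (251 to 278) in N-LKO, which is a log2 ratio of 0.62 (0.46 to 0.78) from 431 and 1575 UMIs. Nrp2 was at 39.2 (31.8 to 47.7) and 77.2 (70.3 to 84.6) CPM, a ratio of 0.97 (0.66 to 1.31). The free-RNA estimates were 19.1 and 39.7 CPM for Nrp1 and 6.0 and 18.6 for Nrp2, well below the measured levels. In macrophage-like cells without a UMI of any endothelial marker, 908 and 1973 cells, Nrp1 was at 169 and 264 CPM and Nrp2 at 44.9 and 76.4.

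Kdr in macrophage-like cells was at 20.4 and 18.6 CPM and Flt1 at 18.0 and 19.1, with overlapping intervals and free-RNA estimates of 12.3 and 15.8 CPM for Kdr. The 11 endothelial markers summed to 516 and 440 CPM in these cells. Plxnd1 was at 20.8 and 29.4 CPM, a ratio of 0.49, and Vegfc at 3.20 and 7.72, at its free-RNA estimates of 3.27 and 8.25 CPM, so no macrophage level can be read from its 8 and 46 UMIs. Vegfa was at 13.2 (9.08 to 18.5) and 15.9 (12.9 to 19.5) CPM. The median of the measured genes was 0.49 against -0.06 over all genes, with 1 gene at least 2-fold higher (4.89% of all genes), which was Vegfc at its free-RNA level, and 0 lower (6.31%). After thinning to 1000 UMIs, 2.59% of WT and 6.50% of N-LKO macrophage-like cells had a UMI of Nrp2.

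T/NK-like cells showed the same direction for the neuropilins at lower levels. In T/NK-like cells Nrp1 went from 70.8 to 148 CPM (1.06), Nrp2 from 12.2 to 45.9 (1.88) and Flt4 from 6.44 to 24.8 (1.89), and 4 of the genes were at least 2-fold higher, where 11.8% of all genes were. The free-RNA profile itself held more of these genes in N-LKO, with Nrp1 at 42 and 88 CPM, Nrp2 at 13 and 42, and Flt4 at 11 and 32, and Flt4 in T/NK-like cells was near its class estimates of 6.8 and 20.3 CPM. Dendritic-like cells, a class that included monocyte genes, had Nrp1 at 106 and 150 CPM, and plasmacytoid dendritic-like cells had it at 180 and 225. Kdr in neutrophil-like cells was at 233 and 118 CPM, and in B-like cells at 158 and 94.2. The endothelial markers of these classes summed to 1230 and 1116 CPM in neutrophil-like and 1044 in B-like cells of either library, and their part in the Kdr levels was not tested. Flt1 in cholangiocyte-like cells was at 71.0 (44.5 to 107) and 24.6 (15.4 to 37.2) CPM, from 22 UMIs in each library.

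The rest of the pathway was read from 6 lists with 54 genes in all, of which 44 were measured in endothelial-like cells. Their median log2 ratio was 0.09 against 0.08 over all genes, with 10 at least 2-fold higher (12.5% of all genes) and 2 at least 2-fold lower (7.54%). Of 7 measured Notch pathway genes 3 were at least 2-fold higher and 0 lower, beside the same 12.5% and 7.54% of all genes, with a median of 0.57. The ligand Jag1 was at 19.5 CPM in WT and 48.7 in N-LKO (1.31, 0.84 to 1.82), the ligand Dll1 at 4.67 and 12.3 (1.35, 0.42 to 2.51), the target Hey1 at 1.27 and 5.29 (1.87, 0.28 to 4.46) and the receptor Notch1 at 125 and 149 (0.26).

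Of the 7 measured signalling and sprouting genes 3 were at least 2-fold higher (12.5% of all genes) and 0 lower (7.54%), with a median of 0.58. Esm1, which encodes endocan and marks tip cells, was at 36.1 CPM in WT and 155 in N-LKO (2.09, 1.77 to 2.45), and the sphingosine-1-phosphate receptor S1pr1 at 103 and 155 (0.58). Among the other VEGF and Tie genes, 2 of 5 measured were at least 2-fold higher (12.5% of all genes), both from few UMIs, and 0 lower (7.54%). The phosphatase Ptprb, which acts on TEK, was at 2431 and 1475 CPM (-0.72), Angpt1 at 1.27 and 5.29 (1.87, 0.28 to 4.46) and the ligand Vegfd at 2.12 and 7.34 (1.68, 0.38 to 3.53).

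Semaphorins went both ways in endothelial-like cells, with 1 of 7 measured genes higher (12.5% of all genes) and 1 lower (7.54%) past 2-fold. Sema3a was at 5.09 and 14.4 CPM (1.45), Sema3d at 35.2 and 13.5 (-1.38), and the receptor Plxna2 at 172 and 254 (0.56). The 9 transcription factors had a median of -0.18 and none past 2-fold, beside the same shares of all genes, with Maf at 1614 and 1192 CPM (-0.44). The 9 measured hypoxia response genes had a median of -0.11, with 1 past 2-fold each way, beside the same 12.5% and 7.54% of all genes. The glucose transporter Slc2a1 was at 1.27 and 8.52 CPM (2.54, 1.05 to 5.10), the kinase Pdk1 at 44.1 and 20.8 (-1.08), and Epas1, which encodes HIF-2α, at 269 and 244 (-0.14, -0.29 to 0.01).

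In stellate-like cells 42 of the pathway genes were measured, with a median of -0.30 against -0.07 over all genes, 2 at least 2-fold higher (10.5% of all genes) and 5 lower (8.2%). Vegfd was at 1.20 and 9.79 CPM (2.77, 0.83 to 6.24) and Esm1 at 14.4 and 45.4 (1.64), both higher as in endothelial-like cells. Lower were Hey1 (9.59 and 2.67 CPM, -1.67), Sema3a (27.0 and 12.5, -1.08), the guidance receptor Robo4 (51.5 and 24.9, -1.03), Sema3d (137 and 67.6, -1.01), Ptprb (1101 and 553, -0.99), Maf (1172 and 590, -0.99), Adm (41.9 and 23.1, -0.84), Hes1 (215 and 122, -0.82) and Epas1 (258 and 180, -0.52).

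Hepatocyte-like cells had 26 pathway genes measured, with a median of 0.18, below the 0.39 of all genes, 1 at least 2-fold higher (22.0% of all genes) and 2 lower (2.42%). Vegfd, the other ligand of FLT4 beside VEGF-C, was the higher gene, at 1.90 CPM in WT and 10.6 in N-LKO (2.47, 1.89 to 3.11). S1pr1 was at 51.8 and 24.4 CPM (-1.08) and Pdk1 at 38.4 and 18.3 (-1.07). The Notch genes Notch1, Hes1 and Jag1 had ratios of 0.99, 0.98 and 0.80, and Hes1 was the most precisely counted of them, at 48.8 and 96.2 CPM (0.84 to 1.12). Plxna2 was at 90.9 and 144 CPM (0.67), Epas1 at 77.9 and 113 (0.54), Slc2a1 at 4.10 and 7.86 (0.94), Nr2f2 at 66.4 and 34.3 (-0.95), Ptprb at 93.8 and 54.5 (-0.78) and Maf at 121 and 82.5 (-0.55). In macrophage-like cells 28 were measured, with a median of 0.01 against -0.06 over all genes, 2 higher (4.89% of all genes) and 1 lower (6.31%) past 2-fold.

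The genes whose levels ran most like each of the 10 were taken by Pearson's r of log2(CPM + 1) over 22 class sums of both libraries, among 13243 genes. The sums share libraries and free RNA, so r is a description. Kdr was most like Ptprb (0.98), F8 and Adgrl4, Flt1 like Adgrl4 (0.97), Gpr182 and Ptprb, and Tek like Cyyr1 (0.98), Adgrl4 and Fbxl7. Flt4 was most like Arhgap23 (0.95), Egfl7 and Btnl9, and Plxnd1 like Adgrf5 (0.94), Stab2 and Esam. Nrp1 was most like Stab1 (0.91), Tfpi and Csprs, and Nrp2 like Bmpr2 (0.93), Luzp1 and Snx13. Among the ligands, Vegfa was most like Kif1b (0.89), Chrm3 and Grb14, Vegfc like Itga1 (0.93), Msrb3 and Tgfbr3, and Angpt2 like Bcl6b (0.90), Asb4 and Esm1 (0.86).

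Long genes were higher in the N-LKO library in general. In endothelial-like cells the median log2 ratio went from -0.48 among the genes of shortest span (the lowest of 10 equal bins, median 3.19 kb) to 0.56 among those of longest (the highest bin, median 221 kb), and in hepatocyte-like cells from -0.12 to 1.02. Set against genes of similar span, the endothelial-like ratios were -1.14 for Kdr, -1.40 for Nrp1, -0.79 for Flt1 and -0.80 for Tek. The same setting took Vegfc in endothelial-like cells from 0.28 to -0.13 and left Vegfa at 1.39 and Angpt2 at 0.52. In hepatocyte-like cells the same comparison left Flt4 at 0.87 and Nrp2 at 0.88, both still positive, took Vegfc to 0.13, and turned Nrp1 from 0.69 to -0.33.

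**Figure D5:**
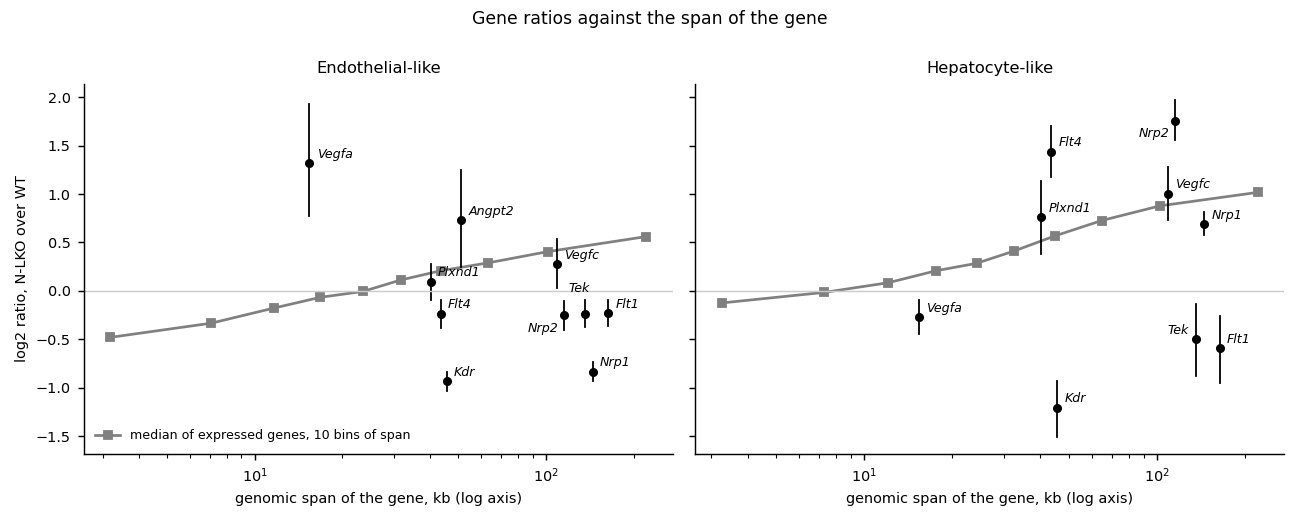
Log2 ratio of N-LKO over WT against gene span (kb, log axis) in endothelial-like and hepatocyte-like cells, with the line joining the medians of 10 equal bins of all measured genes and points with 95% counting intervals for the genes named. In endothelial-like cells Kdr (-0.94) and Nrp1 (-0.84) lie below the line, and in hepatocyte-like cells Flt4 (1.44) and Nrp2 (1.76) lie above it.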

How the data were processed

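Cells of perfused mouse livers were profiled with 10x Genomics Single Cell 3′ v3 chemistry, in 1 WT and 1 N-LKO library. The authors deposited raw UMI counts per gene and barcode from Cell Ranger (version 7.1.0 in the file headers), and the submitters' processing notes also name Seurat and build mm9. The deposited gene IDs carry no coordinates, and 32235 of 32285 matched GENCODE M21 (GRCm38), from which positions and spans were taken. Intronic counting is not described in the sources used here.

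Cells with at least 1000 UMIs, at least 400 genes and at most 30% mitochondrial UMIs were kept, and 1724 WT (8.55%) and 2363 N-LKO (10.6%) cells were removed as doublets at a simulated-doublet score of 0.25. Counts were scaled to 10000 per cell, and 2000 variable genes, 30 principal components and Leiden clustering at resolution 0.3 (scanpy 1.11.5, leidenalg 0.10.2) were used. The 10 genes and their pathway lists were left out of the variable genes and marker lists. Clusters were named from marker lists, and the thresholds for naming clusters and subclusters were set after seeing the data. The 10 genes, the lists and the named-gene rules were chosen with earlier results of these data known.

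UMIs were summed per class and library, and log2 ratios took 0.5 UMI added to each sum. No test was run and no p-value is given, since each group is a single library. Named genes were the 10 genes in each class. From the pathway lists, up to 10 genes per class were named, those of at least 5 CPM with an interval clear of 0 and the largest ratio, plus the most abundant of each list. For each of the 10, the 3 most similar genes were named, among those of at least 10 CPM. Free RNA was profiled from barcodes under 500 UMIs (18526 WT and 13674 N-LKO), and its share of a class was the median ratio of class to profile over markers of other cell types, capped at 100%. The scripts were tested on simulated data. Settings for depth, mitochondrial share, doublets, resolution, scaling, free RNA and clusters left out were varied, 16 in all, 3 of them chosen after seeing the data.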

Additional observations from a re-analysis of the deposited data

Results flagged for a closer look

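Only endothelial-like, hepatic stellate-like, hepatocyte-like and macrophage-like cells were searched here, with 1 library per group. Each gene below had counting intervals above 0 in at least 1 of these classes and below 0 in another of them. The difference between classes was not tested.

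Nrp1 had log2 ratios (N-LKO over WT) of 0.69 in hepatocyte-like and 0.62 in macrophage-like cells, against -0.84 in endothelial-like and -0.74 in hepatic stellate-like cells. Nrp2 had 1.76 and 0.97 in the first pair of classes and -0.25 and -0.48 in the second. Flt4 was at 1.44 in hepatocyte-like cells, -0.23 in endothelial-like and -0.92 in stellate-like cells. Plxnd1 was at 0.76 in hepatocyte-like and 0.49 in macrophage-like cells, and at -0.74 in stellate-like cells. Vegfa ran the other way, at 1.32 in endothelial-like and -0.27 in hepatocyte-like cells, the latter becoming 0.08 with free RNA subtracted. In stellate-like cells Nrp1, Nrp2, Flt4 and Plxnd1 each kept their sign in 10 of 11 alternatives. The highest values were 0.09 for Nrp1, 0.28 for Flt4, 0.22 for Plxnd1, and 4.21 for Nrp2, where WT held none of its UMIs. Endothelial markers in stellate-like cells summed to 3052 CPM in WT and 1528 in N-LKO, and their part in these ratios was not tested. Without the largest N-LKO hepatocyte-like cluster, Nrp1 and Plxnd1 were at -0.17 and -0.05 in hepatocyte-like cells. Against the whole endothelial-like class the contrast was then in sign for Nrp2 (0.60) and Flt4 (0.43). In the sinusoidal-like subclusters alone Nrp2 was at -0.18 (-0.34 to -0.01) and Flt4 at -0.02 (-0.17 to 0.13). The interval of Flt4 there lay on both sides of 0, so no contrast in sign was shown for it.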

How the results depend on the processing

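Of 446 ratios of single genes recomputed under 16 alternatives, 405 kept the sign reported, 324 stayed within their counting interval, and 4 that were past 2-fold as reported changed sign. Sign changes of smaller ratios included Flt1 (-0.68 to 1.38) and Nrp2 (-0.48 to 4.21, with 0 WT UMIs) in stellate-like cells without an endothelial marker UMI, and Nrp1 in hepatocyte-like cells (0.69 to -0.33 relative to genes of similar span). Of 48 medians 45 stayed between the second lowest and second highest ratio of the genes as reported. That range is wide (-0.84 to 0.73 in endothelial-like cells) and also holds medians of changed sign, so it says little about stability. Of 96 counts past 2-fold 62 were within 1.5 times. The median changed sign in endothelial-like cells (-0.23) to 0.04 in the sinusoidal-like subclusters and 0.31 at 10% mitochondrial UMIs or less, in stellate-like cells (-0.58) to 0.18 without an endothelial marker UMI, and in hepatocyte-like cells (0.69) to -0.33 relative to genes of similar span, -0.32 without the clusters of high or low Malat1, -0.26 without the largest N-LKO cluster and -0.15 at 500 UMIs or more. The cause of the moves was not tested. No paired analysis was possible because each group has 1 library. With at least 2000 UMIs per cell no cluster was named endothelial-like, stellate-like or macrophage-like, so no value was had for these classes.

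The 4 were Vegfc in hepatocyte-like cells (1.00), at -0.32 without the clusters of high or low Malat1, -0.26 without the largest N-LKO cluster and -0.11 at 500 UMIs per cell or more, and Kdr there (-1.21), at 0.09 with at most 10% mitochondrial UMIs. In endothelial-like cells Kdr stayed between -1.14 and -0.68 over 12 alternatives and Nrp1 between -1.40 and -0.66. Their count 2-fold lower (0) became 1 relative to the median of all genes, 2 relative to genes of similar span and 1 with the mixed clusters that carry endothelial markers. The count higher (1) became 0 with free RNA subtracted, at 500 UMIs or more and at 10% mitochondrial UMIs or less. The last of these left 416 of 1869 WT and 57 of 2353 N-LKO cells, so it removed a larger share of N-LKO cells. With free RNA subtracted, no ratio was taken where fewer than 3 UMIs remained in either library. That left out Vegfa, which in WT stood near its free-RNA estimate (14.4 against 13.3 CPM), so its contrast was not measured in that setting.

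In stellate-like cells the median (-0.58) became -1.16 with free RNA subtracted, at estimated shares that may be too high. The count lower (1) became 3 relative to genes of similar span, 6 with free RNA subtracted, 2 at 10% mitochondrial UMIs or less and 0 in cells without an endothelial marker UMI, and the count higher (1) became 0 with free RNA subtracted and without doublet removal, and 2 in cells without an endothelial marker UMI.

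In hepatocyte-like cells the count higher (3) and the count lower (1) became 0 and 3 relative to genes of similar span and without the clusters of high or low Malat1, 0 and 2 without the largest N-LKO cluster and at 500 UMIs or more, 5 and 0 at 2000 UMIs or more, and 6 and 0 at 10% mitochondrial UMIs or less. The count lower became 2 in cells without an endothelial marker UMI and 0 with free RNA subtracted, where Kdr gave no ratio. The N-LKO level of Kdr equalled its free-RNA estimate, which left fewer than the 3 UMIs needed. In macrophage-like cells the median (0.49) became 0.08 at 500 UMIs or more and 0.98 at 10% mitochondrial UMIs or less. The count higher (1) became 2 relative to the median of all genes, without mitochondrial genes and Malat1 and without doublet removal, 4 at 10% mitochondrial UMIs or less and 0 in cells without an endothelial marker UMI, and the count lower (0) became 3 with free RNA subtracted and 1 at 500 UMIs or more.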

Other observations

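The 3 clusters left unnamed held the markers of more than 1 cell type and entered no class above. The largest, with macrophage and endothelial markers (576 WT and 1411 N-LKO cells), had Kdr at 481 CPM in WT and 231 in N-LKO and Nrp1 at 546 and 406. A cluster with T cell and endothelial markers (260 and 596 cells) had Kdr at 548 and 377 CPM.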
